A study of Mus musculus with 2 samples.

Results

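Complement is a cascade of secreted proteins that tags and opens cells, and 9 of its genes are described here in mouse optic nerve: the C1q chain genes C1qa, C1qb and C1qc, the convertase genes C2, C4b and Cfb, the central component C3, and the inhibitors Serping1 and Clu. They were chosen by name, out of 23950 gene symbols in the deposited tables, and each of the 9 had 1 entry. The set was put together because C3 and Serping1 were higher in the library labelled Hdac3 cKO, so the values below describe these genes and test nothing. The study measured RNA of whole optic nerve at postnatal day 12 in 1 library of controls with the genotype Hdac3 f/+; Olig1-cre and in 1 library of Hdac3 cKO animals, whose genotype is Hdac3 f/f; Olig1-cre, and its title names the switch between oligodendrocyte and astrocyte fates as the question. Both groups are of mixed strain and both carry Olig1-cre, a recombinase expressed from the Olig1 gene, which marks the oligodendrocyte lineage. The controls carry the floxed Hdac3 allele as well, in 1 copy. The sources used here do not say how many animals a library holds.

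In the classical pathway, C1q recognises a surface and its partner proteases cleave C4 and C2, whose fragments form an enzyme that splits C3. In the alternative pathway, factor B, the product of Cfb, provides the matching enzyme and amplifies the deposition of C3 fragments. C1 inhibitor, the product of Serping1, blocks the C1 proteases, and clusterin, the product of Clu, binds terminal components and acts as a secreted chaperone. In brain, C1q comes mainly from microglia, while astrocytes are known to make clusterin and, in some reactive states, C3. Complement on synapses and axons is best known there for marking material that microglia then remove.

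Below, control and cKO stand for the libraries that carry these labels. All values are FPKM, fragments scaled by transcript length and library total, as the authors deposited them. Differences are log2 of cKO over control FPKM after adding a pseudocount of 1 FPKM to each. A gene counts as higher or lower when this difference reaches 2-fold and its deposited intervals do not overlap. Neither group has a replicate, so no p-value is given, and read depth is unknown. The level of Hdac3 was 36.4 FPKM in control and 38.0 FPKM in cKO (log2 difference 0.06, or -0.26 with both libraries scaled to equal FPKM sums). The gene level therefore leaves the genotype labels unchecked, and directions below go by the label alone. The labelled tissue carried a defining transcript of myelinated nerve: Mbp, which encodes a myelin protein, was at 15976 FPKM in control and 2013 FPKM in cKO. Of 14154 genes tested, 4.73% were higher and 4.51% lower. The median difference of all tested genes was 0.12, or -0.16 with equal FPKM sums. With small RNAs left out of the sums it was 0.04. Among genes past the rule, the higher ones made up 51.2% on the deposited FPKM and 36.6% with the libraries centred on their median difference. They made up 18.3% with equal FPKM sums and 42.1% with small RNAs left out of the sums.

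All 9 genes passed the minimum of 1 FPKM, and all 9 had higher FPKM in cKO with intervals that did not overlap, against 61.4% of tested genes with a difference above 0 and 38.4% with intervals apart in that direction. By the size and interval rule 4 of the 9 were higher (C3, Serping1, C2 and C4b) and 0 were lower, beside the 4.73% and 4.51% over all tested genes. Since the set was chosen on this contrast, nothing is read from that count. The differences ran from 0.71 for C1qa to 2.34 for C3, with a median of 0.83 beside the 0.12 of all tested genes. The summed level of the 9 genes was 921 FPKM in control and 1818 FPKM in cKO, a ratio of 1.97. Levels of many of these genes lie above their own deposited intervals, 6 of 9 in control and 8 of 9 in cKO, so the intervals are given for each gene beside the level. RNA from whole nerve cannot tell fewer cells of a type from less RNA per cell.

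**Figure D1:**
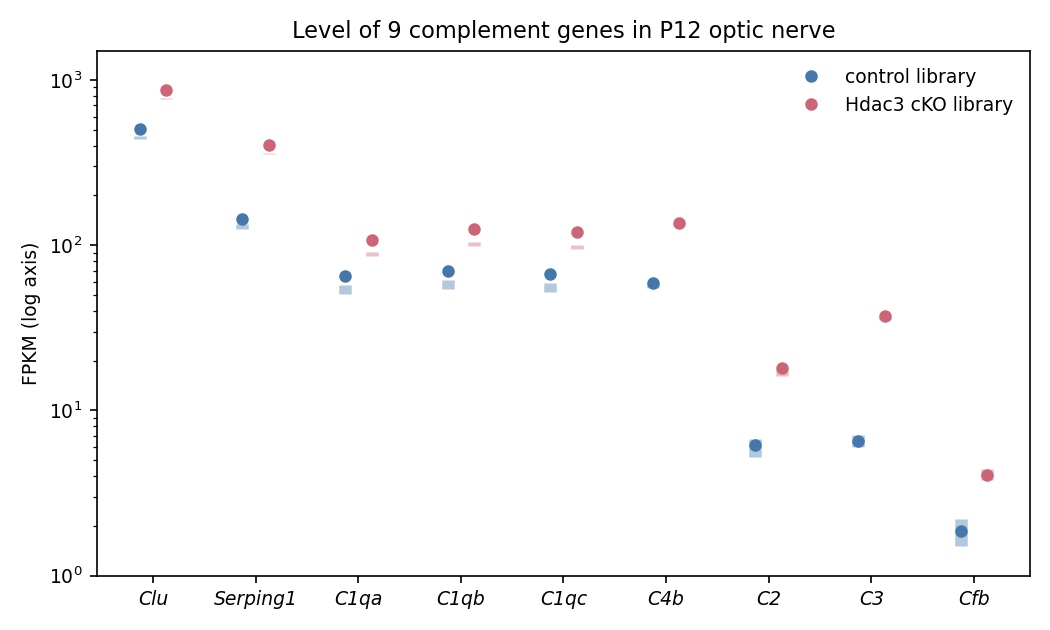
Level of each gene in FPKM on a log axis, with points for the deposited value of the control library and the Hdac3 cKO library and thick bars for the deposited intervals. In each of the 9 genes the cKO point lies above the control point, from Clu at 868 against 502 FPKM down to Cfb at 4.08 against 1.85 FPKM, and the bars of the C1q chain genes lie below their points.

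C3, the component on which all pathways converge, lies on chromosome 17 (57343396 to 57367559, mm9). Its level was 6.57 FPKM in control (deposited interval 5.97 to 7.13) and 37.2 FPKM in cKO (35.3 to 36.9). The cKO level is 5.67 times the control level, and the log2 difference of 2.34 ranks 157 of 14154 tested genes counted from the highest. The interval bounds give a log2 difference of 2.16 to 2.44. In control C3 stood beside C2 in level, with overlapping intervals. In cKO C3 was apart from C2 and still under each of the C1q chain genes.

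Ratios between genes of a library do not depend on how the libraries are scaled. The FPKM ratio of C3 to C4b was 0.112 in control and 0.273 in cKO. The ratio of C3 to the mean of the C1q chain genes was 0.0974 and 0.318, and that of C3 to Cfb was 3.55 and 9.13. C3 was higher relative to each of these genes in cKO. However, C3 was chosen for being higher in this contrast, so nothing is read from these ratios. Its receptor gene C3ar1, chosen with its values known, had 1.71 and 4.39 FPKM, and the ratio of C3 to it was 3.84 and 8.48.

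Promoter windows were at hand for C3, C1qb and C1qc, and all 3 are shown, C3 first as the gene with the largest difference. The C3 sequence is that of RefSeq on GRCm38.p6, chr17:57228087-57228386, minus strand, from 250 bases before to 50 bases after the annotated start, and capitals mark the motif matches described next.
C3: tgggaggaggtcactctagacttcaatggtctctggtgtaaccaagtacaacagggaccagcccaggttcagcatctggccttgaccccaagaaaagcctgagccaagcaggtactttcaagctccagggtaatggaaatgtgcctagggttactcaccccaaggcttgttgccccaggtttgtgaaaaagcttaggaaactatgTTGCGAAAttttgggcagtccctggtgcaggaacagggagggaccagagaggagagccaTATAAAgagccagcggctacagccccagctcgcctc
Both strands were searched. The letters TTGCNNAA, a C/EBP core, were found once, at position -45 from the start, and 10.8% of 32851 promoter windows of the same length hold them. The letters TATAAA were found at position 15 after the annotated start, and 13.6% of windows hold them. The letters GGGANTTTC (NF-kB, in 1.11% of windows), TTCNNNGAA (STAT factors, 8.30%), GAAANNGAA (interferon-regulated factors, 8.56%) and TGANTCA (AP-1, 7.81%) were in none of the 3 windows printed here, and a match or its absence says nothing about a factor.

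Serping1, which encodes C1 inhibitor, was the second most abundant of the 9 genes in both libraries. It lies on chromosome 2 (84605517 to 84615586, mm9). Its level was 143 FPKM in control (interval 125 to 134) and 403 FPKM in cKO (355 to 363), a log2 difference of 1.49 that ranks 239 of the tested genes. Among all symbols its level ranked 457 in control and 168 in cKO. Serping1 stood in nearly the same ratio to the genes of the proteases that C1 inhibitor blocks, 80.0 times the mean of C1s1 and C1ra in control and 86.9 times in cKO. Its ratio to the mean of the C1q chain genes was 2.12 in control and 3.43 in cKO. Relative to C3 it was lower in cKO, at 21.8 times C3 in control and 10.8 times in cKO.

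Clu, on chromosome 14 (66587320 to 66600382, mm9), was the most abundant of the 9 genes. Its level was 502 FPKM in control (interval 441 to 457) and 868 FPKM in cKO (766 to 777). The log2 difference of 0.79 did not meet the 2-fold size. The share of Clu in the summed level of the 9 genes was 54.5% in control and 47.7% in cKO, while the share of Serping1 was 15.6% and 22.2%. The ratio of Clu to Serping1 was 3.51 in control and 2.16 in cKO, and that of Clu to C3 was 76.5 and 23.3. Of the inhibitors, Serping1 was past the 2-fold size and Clu under it. Serping1 was chosen for being higher in this contrast, so nothing is read from how the inhibitors compare.

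C4b and C2 encode the components that C1s cleaves and that together form the classical C3 convertase. C4b (chromosome 17, 34865326 to 34880842, mm9) had 58.6 FPKM in control (interval 55.4 to 58.6) and 136 FPKM in cKO (130 to 133), a log2 difference of 1.20. With equal FPKM sums the difference of C4b was 0.87, under the 2-fold size. With small RNAs left out of the sums it was 1.11 and met the rule. C2 (chromosome 17, 34999547 to 35019045) was at 6.17 FPKM (5.25 to 6.67) and 18.0 FPKM (16.2 to 17.6), a log2 difference of 1.40. In control the interval of C4b overlapped those of all 3 C1q chain genes, so their order there is not resolved. In cKO the level of C4b was above all 3, with its interval apart from theirs. The ratio of C4b to the mean of the C1q chain genes was 0.870 in control and 1.16 in cKO. The C2 transcript stayed far less abundant than that of its partner, at 0.105 of the C4b level in control and 0.132 in cKO.

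C4b has a near-identical neighbour, C4a, which encodes the sex-limited protein and is not among the 9 genes. In GENCODE M21 transcripts 35.2% of the 50-base words of C4b also occur in C4a, so how the authors' counting split shared reads bears on both levels. C4a was at 13.4 FPKM in control and 31.7 FPKM in cKO (log2 difference 1.18), and the ratio of C4b to C4a was 4.38 and 4.30. For C1qa, C1qb, C1qc, C3, Serping1 and Clu 0 of such words occur in another gene. For C2 58.0% and for Cfb 81.4% of them occur in Gm20547, which has no entry in the deposited tables. For C2 and Cfb 0 occur in another gene of those tables.

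Cfb, the gene of factor B, is the least abundant of the set. It lies 87 bases from C2 on chromosome 17 (34993319 to 34999459, mm9). Its level was 1.85 FPKM in control (interval 1.51 to 2.19) and 4.08 FPKM in cKO (3.77 to 4.39). The cKO level is 2.20 times the control level, but with the pseudocount the log2 difference was 0.83 and did not meet the rule. With a pseudocount of 0.1 it was 1.10 and met it. The ratio of C2 to Cfb, which encode related proteases, was 3.33 in control and 4.41 in cKO. A microRNA entry, Mir6972, lies inside the Cfb locus and another, Mir6978, inside the C3 locus, and reads there cannot be told apart. Mir6972 was at 246 FPKM in control and 77.9 FPKM in cKO (log2 difference -1.65), the opposite direction to Cfb. It did not meet the rule, since its intervals overlap, and its part in the Cfb level was not tested. Mir6978 was listed at 0 in both libraries.

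C4b, C4a, Cfb and C2 share a stretch of chromosome 17 in the major histocompatibility complex with genes of other functions. Within the 153720 bases from the start of C4b to the end of C2, 4 other genes apart from microRNAs were tested. Of these 4 genes 0 met the rule, beside 4.73% higher and 4.51% lower over all tested genes, so nothing is read from that count. Their log2 differences ran from -0.13 for Skiv2l, an RNA helicase gene, to 0.30 for Dxo, an RNA decapping enzyme gene. Stk19 was at 14.4 FPKM in control and 15.1 FPKM in cKO, and Nelfe, which encodes a subunit of the negative elongation factor, was at 17.7 and 17.3 FPKM. These neighbours were chosen by position with the values of the complement genes known. A microRNA entry in the stretch, Mir6970, was listed at 0 in control and at 332 FPKM in cKO and met the rule as higher.

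**Figure D2:**
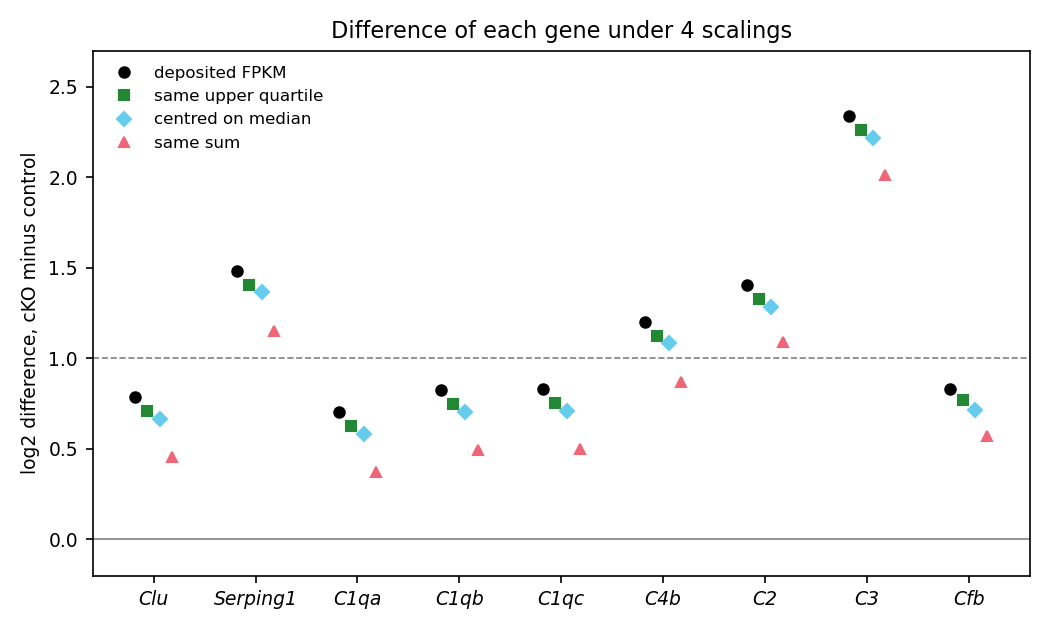
Log2 difference (cKO minus control) of each of the 9 genes on the deposited FPKM and after 3 other scalings, with a dashed line at a 2-fold difference and a solid line at no difference. Every point lies above 0. C3, Serping1 and C2 stay above the dashed line under the 4 scalings drawn, and C4b falls to 0.87 when both libraries are scaled to the same sum.

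The C1q chain genes lie side by side within 18699 bases of chromosome 4 and were at nearly equal levels in each library. In control C1qa (136451831 to 136454759, mm9) was at 65.5 FPKM, C1qb (136436061 to 136442092) at 69.8 FPKM and C1qc (136445717 to 136448829) at 66.9 FPKM. The deposited intervals of these control levels, 50.9 to 57.7, 54.1 to 61.3 and 51.7 to 58.7 FPKM, overlap one another. In cKO C1qa was at 107 FPKM (interval 85.5 to 90.4), C1qb at 125 FPKM (99.0 to 104) and C1qc at 120 FPKM (94.9 to 100.2). There the interval of C1qa was apart from those of C1qb and C1qc, which overlapped each other. The log2 differences were 0.71 for C1qa, 0.83 for C1qb and 0.83 for C1qc, so none of the 3 met the 2-fold size. The ratio of C1qb to C1qc was 1.04 in both libraries, and that of C1qb to C1qa was 1.07 in control and 1.16 in cKO.

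The other promoter windows at hand are those of C1qb and C1qc. They are RefSeq sequence on GRCm38.p6, C1qb at chr4:136886151-136886450 and C1qc at chr4:136892865-136893164, both minus strand, and capitals again mark motif matches.
C1qb: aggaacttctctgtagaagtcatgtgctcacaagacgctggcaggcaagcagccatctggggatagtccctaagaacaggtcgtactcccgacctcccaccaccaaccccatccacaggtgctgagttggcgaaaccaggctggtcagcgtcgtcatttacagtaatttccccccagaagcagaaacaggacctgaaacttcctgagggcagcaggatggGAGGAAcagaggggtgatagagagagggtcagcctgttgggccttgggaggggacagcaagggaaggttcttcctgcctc
C1qc: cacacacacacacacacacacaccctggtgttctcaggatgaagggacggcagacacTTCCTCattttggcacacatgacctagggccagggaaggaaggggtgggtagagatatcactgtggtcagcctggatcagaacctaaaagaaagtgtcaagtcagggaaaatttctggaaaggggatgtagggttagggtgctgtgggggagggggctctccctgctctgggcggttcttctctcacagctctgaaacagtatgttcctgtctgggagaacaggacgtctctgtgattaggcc
Both windows hold the letters GAGGAA, a core of ETS factors such as PU.1, which is the lineage factor of microglia and macrophages. The match is at position -30 in C1qb and, on the other strand, at -193 in C1qc, and 28.3% of all windows hold it. Neither holds the C/EBP letters or TATAAA. Promoter windows matched 3 of the 9 genes, and those of C1qa, C2, C4b, Cfb, Serping1 and Clu were not used here.

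Markers of the cells that make C1q differed between cell types. Marker counts, medians and sums here and below are on the deposited FPKM and were not repeated under other scalings. Over all tested genes 4.73% were higher and 4.51% lower. Their median difference was 0.12, or -0.16 with equal FPKM sums and 0.04 with small RNAs left out of the sums. A median as small as that of the microglia markers therefore has no settled direction. Of 14 microglia markers 0 met the rule in either direction, with 9 differences above 0, a median log2 difference of 0.28 and a range of -0.39 to 0.75. Their summed level was 349 FPKM in control and 442 FPKM in cKO, and no marker was at 0. Tyrobp, an adaptor of microglial receptors, was at 54.7 and 86.1 FPKM. The differences of C1qb and C1qc lie above those of all 14 microglia markers and that of C1qa above 12 of the 14. Of 9 markers of other macrophages and of monocytes 6 were higher and 0 lower, with a median log2 difference of 1.29, their summed level being 76.3 FPKM in control and 199.8 FPKM in cKO. Cbr2 was at 20.2 and 59.3 FPKM and Pf4 at 17.4 and 44.0 FPKM, and no marker was at 0. The C1q differences lie under those of 7 of these 9 markers. The part of these cells in the C1q levels was not tested.

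Markers of cells that can make Serping1, Clu, C4b or C3 had medians above 0. Of 13 astrocyte markers tested 3 were higher and 0 lower, with a median log2 difference of 0.60, a range of -0.24 to 1.39 and a summed level of 1897 FPKM in control and 3337 FPKM in cKO. S100b, a calcium-binding protein gene, was at 324 and 561 FPKM. Gfap was left out because the cKO table lists it at 0 with a status for too many fragments, while control has 3997 FPKM. Of 12 meningeal fibroblast markers 9 were higher and 0 lower, with a median log2 difference of 1.19, a range of 0.13 to 1.63 and a summed level of 2198 and 5079 FPKM. Igf2 was at 679 and 1665 FPKM and Col1a2, a collagen chain, at 335 and 704 FPKM. The difference of C3 was above that of every tested marker of these lists. That of Serping1 was above every tested astrocyte marker and within the range of the fibroblast markers. The difference of Clu was within the range of both. C3 and Serping1 were chosen for being higher in this contrast, so nothing is read from their places. No marker of these lists was at 0 apart from Gfap, and the part of either cell type was not tested.

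The remaining cell types differed in direction. Of 10 mural cell markers 2 were higher and 0 lower, with a median log2 difference of 0.85, their summed level being 303 and 547 FPKM, and Rgs5 was at 48.3 and 65.4 FPKM. Of 10 endothelial markers 0 met the rule, with a median of 0.36 and a summed level of 176 and 233 FPKM. Cldn5, a tight junction gene, was at 64.1 and 68.5 FPKM and Cdh5 at 20.9 and 38.5 FPKM. All 14 oligodendrocyte markers were lower, with a median of -2.52 and a summed level of 29239 and 4015 FPKM. Liver is a usual source of complement outside the nerve. Of 12 transcripts of plasma proteins made there, 10 were under 1 FPKM in both libraries. Fgb was at 0 in both, and the highest was Apoa2 at 1.14 and 2.02 FPKM. The summed level of the 12 was 2.73 and 4.99 FPKM. These RNA levels do not measure plasma protein in the tissue. Neutrophil markers were also low, with 6 of 8 under 1 FPKM in both libraries and a summed level of 1.71 and 3.14 FPKM. Of 4 red blood cell genes tested 2 were higher, with a summed level of 90.7 and 268.7 FPKM over 5 genes. Hba-a1 was at 40.9 and 143 FPKM, while its copy Hba-a2 was at 5.30 and 3.46 FPKM with overlapping intervals. Reads can be shared between these copies, and how they were split was not examined. The part of blood in the complement levels was not tested.

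**Figure D3:**
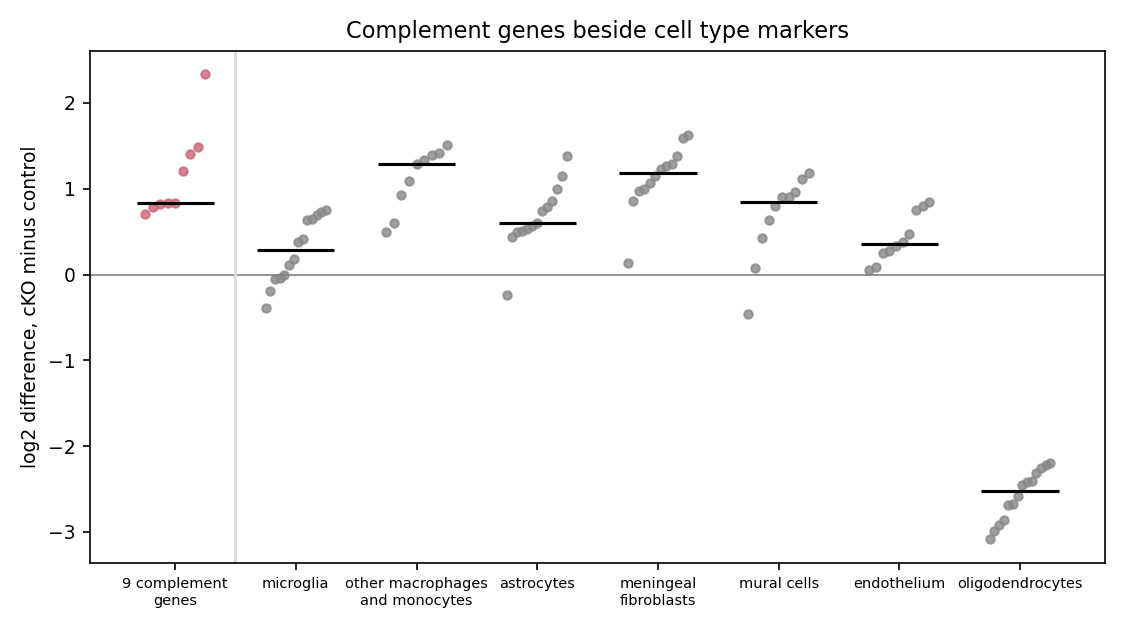
Log2 difference (cKO minus control) of each of the 9 complement genes and of each tested marker of 7 cell types, with a black line at the median of a list. The complement genes have a median of 0.83. Marker medians are 0.28 for microglia, 1.29 for other macrophages and monocytes, 0.60 for astrocytes and 1.19 for meningeal fibroblasts. Those of mural cells, endothelium and oligodendrocytes are 0.85, 0.36 and -2.52.

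The rest of the pathway was followed with 54 further complement genes grouped by role, of which 35 were tested. Of these, 7 were higher and 3 lower, beside the 4.73% and 4.51% of all tested genes, and the median log2 difference was 0.64. The genes of the C1 proteases, C1r and C1s, were at low levels: C1s1 was at 2.38 FPKM in control and 5.83 FPKM in cKO (log2 difference 1.01) and C1ra at 1.20 and 3.44 FPKM (1.01). Both met the rule on the deposited scale but not after any of 4 other scalings, and both share reads with their copies C1s2 and C1rb. Of 5 lectin pathway genes tested 4 had a difference above 0 and 1 a difference below 0, at -0.60. The 1 that met the rule as higher was Colec12, a scavenger receptor of the collectin family, at 42.2 and 94.6 FPKM (1.14). Colec12 and C4a fell short of the rule with equal FPKM sums but met it with small RNAs left out of the sums. Fcna, which encodes a ficolin, was at 4.13 and 8.25 FPKM and did not meet the rule, and Mbl1, Mbl2 and Fcnb were listed at 0 in both libraries.

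Downstream of C3 little was detected. Hc, the gene of C5, was at 0.0622 FPKM in control and 0.0523 FPKM in cKO, under the minimum for testing. Of 6 terminal pathway genes only C8g passed the minimum, at 3.12 and 4.13 FPKM, and C9 was listed at 0 in both libraries. C6, the next highest, was at 0.0961 and 0.642 FPKM. Cfp, which encodes properdin, the stabiliser of the alternative convertase, was at 5.65 and 12.0 FPKM with a log2 difference of 0.97, just under the 2-fold size. Cfd, the gene of factor D, was listed at 0 in control and was at 0.0476 FPKM in cKO.

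Regulators were split by direction. Of 14 tested, 3 were higher, among them Cd59a and Cd59b. Cd59a, a membrane inhibitor of the terminal complex, was at 26.6 FPKM in control and 75.5 FPKM in cKO (log2 difference 1.47), and Cd59b at 4.25 and 16.3 FPKM (1.72). Cd59a and Cd59b met the rule under each of 4 other scalings. The regulators lower in cKO were the sushi-domain genes Sez6l, at 12.8 and 3.37 FPKM (-1.66), Csmd2, at 4.61 and 1.33 FPKM (-1.27), and Susd4, at 9.30 and 3.47 FPKM (-1.20). All 14 oligodendrocyte markers were lower in that library as well, and their part in these 3 was not tested. Vtn, the gene of vitronectin, which is also a mural cell marker here, was the most abundant regulator at 160 and 312 FPKM and did not meet the rule (0.96).

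Of 9 receptor and uptake genes tested 0 met the rule, their median log2 difference being 0.47 and their range 0.19 to 0.99. Calr, which encodes calreticulin, a chaperone that also binds C1q, was at 355 FPKM in control and 431 FPKM in cKO. Lrp1, an endocytic receptor gene, was at 39.3 and 64.2 FPKM. With a pseudocount of 0.1, 8.17% of all tested genes were higher. In that setting the anaphylatoxin receptor genes C3ar1 and C5ar1 and the macrophage receptor gene Vsig4 met the rule as higher. Their cKO levels were 2.57, 2.82 and 3.37 times those of control, with intervals apart, at 4.39 FPKM or less.

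**Figure D4:**
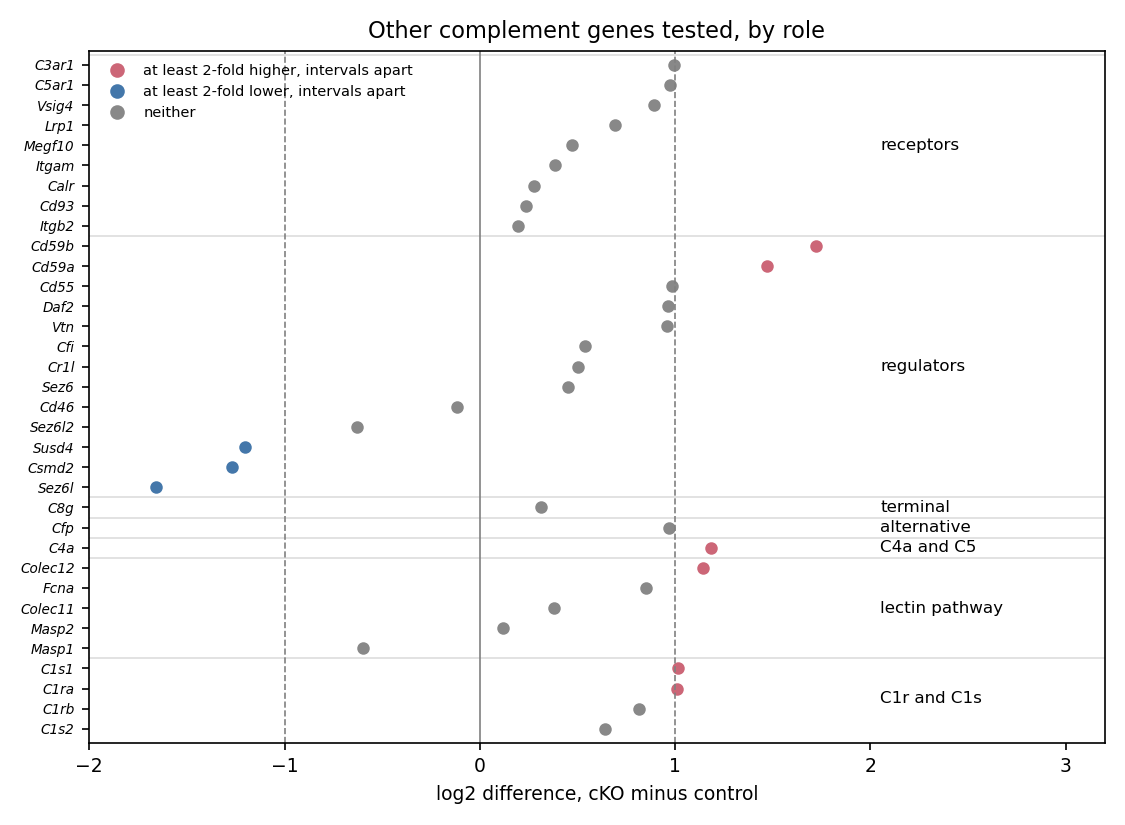
Log2 difference (cKO minus control) of other complement genes tested, those reported here, grouped by role, with dashed lines at 2-fold and colours for genes that met the size and interval rule. Regulators reach from Sez6l at -1.66 to Cd59b at 1.72, while all 9 receptor genes lie above 0 and under the 2-fold line.

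C3 and Serping1 are both used as markers of reactive astrocyte states, so the other genes of such states are given beside them. Of 16 reactive astrocyte genes tested 7 were higher and 0 lower on the deposited FPKM, beside 4.73% and 4.51% of all tested genes. Their median log2 difference was 0.87 and their range -0.47 to 1.75. The calls of both lists in this paragraph were not repeated under other scalings. C4b, at 1.20, fell short of the rule with equal FPKM sums but met it with small RNAs left out of the sums. Most of the 7 lie at or below 1.20. Serpina3n, a secreted serpin gene, was at 223 FPKM in control and 421 FPKM in cKO, and Vim, the gene of vimentin, at 1762 and 2250 FPKM. Of 9 genes tested from a list for the inflammatory state in which C3 is induced, 2 were higher and 0 lower, and the median was 0.77. These were H2-D1, an antigen presentation gene, at 59.8 and 133 FPKM, and Srgn, a proteoglycan gene, at 36.9 and 101 FPKM. The difference of C3 lies above that of every tested gene of both lists. C3 was chosen for being higher in this contrast, so nothing is read from that place.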

How the data were processed

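Whole optic nerve RNA was sequenced from TruSeq RNA libraries, 1 library per group. The authors deposited FPKM per gene with interval bounds and a status, per the file headers. CASAVA, TopHat, Cufflinks and mm9 are listed, per the submitters' processing notes. The sources used here give no tool versions, annotation or read counts, so depth is unknown. The members and gene lists were chosen with earlier results of these data known.

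With Python 3.11.15 and pandas 2.3.3, tables were joined by symbol, start site group and locus. A symbol with several entries took the entry with the highest summed FPKM. Genes were tested with OK status and at least 1 FPKM in a library. The pseudocount was 1 FPKM and no scaling was added. Named are all members, other complement genes past the rule, the 2 most abundant genes of each role or marker list, and Hdac3, except some genes that are not reported here. Deposited starts were taken as counted from 0 and raised by 1. The code that makes the calls was tested on simulated data. Other pseudocounts, scalings, minimum levels, entries and interval use were tried. Promoters came from a RefSeq table on GRCm38.p6 and shared 50-base words from GENCODE M21 transcripts, with no coordinates converted. Motif letters were settled after these promoters had been searched with looser NF-kB and interferon patterns, and the neighbouring genes and shared words were examined after the levels were seen.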

Additional observations from a re-analysis of the deposited data

How the results depend on the processing

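Over 11 other settings, 10 of them planned, the 9 genes kept a difference above 0. Between 3 and 5 of them were higher, with 3 after scaling to the same sum, where C4b fell short (0.87), and 5 with a pseudocount of 0.1, where Cfb joined (1.10). C3 ranged from 1.87 to 2.49 and Serping1 from 1.15 to 1.49. The median of the members was 1.10 with a pseudocount of 0.1, 0.57 after scaling to the same sum and 1.02 with a minimum of 5 FPKM, which left out Cfb. Of the other complement genes, 15 were higher with a pseudocount of 0.1, 4 with a pseudocount of 5 and 3 after scaling to the same sum, while 1 was lower with a pseudocount of 5. Over all tested genes, 1156 were higher and 823 lower with a pseudocount of 0.1, 282 and 339 with a pseudocount of 5, 439 and 761 after centring on the median, and 215 and 960 after scaling to the same sum. With small RNAs left out of the sums, 511 were higher and 704 lower. The cause was not tested. The use of interval midpoints in place of FPKM was chosen after seeing the data. No paired analysis was possible because each group has 1 library and the result comes from no test. The unknown depth and the intervals that exclude their own levels limit each value.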

Other observations

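Genes with levels nearest to those of C3 and Serping1 were looked up by distance in log2 FPKM over both libraries, with predicted genes and small RNAs left out. Nearest to C3 were Ccl8, a chemokine gene, at 7.08 FPKM in control and 28.8 FPKM in cKO, then Itih3 at 7.90 and 46.4 FPKM and Snx33 at 8.70 and 30.0 FPKM. Nearest to Serping1 were Islr at 149 and 411 FPKM, Dcn, the gene of decorin and a meningeal fibroblast marker here, at 138 and 429 FPKM, and Nupr1 at 156 and 369 FPKM. The distances were 0.37 to 0.47 for C3 and 0.06 to 0.18 for Serping1 on the log2 scale. With 2 libraries, a near level describes these values only.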
